A study of Mus musculus with 9 samples.

Results

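The 10 genes described here encode pore subunits of the ionotropic glutamate receptors: Gria1 to Gria4 of the AMPA receptor, and Grin1, Grin2a, Grin2b, Grin2c, Grin2d and Grin3a of the NMDA receptor. They were chosen by gene symbol and make up 10 of the 31053 genes counted in single nuclei of mouse brain, from dissected hippocampus and cortex of each animal combined in 1 library. The animals were 9 male wild-type C57BL/6 mice in 3 groups of 3. The study took aged mice from the National Institute on Aging colony and young mice from Jackson Laboratories, so age and supplier cannot be told apart. Young AAV-EGFP mice were 5 months old and carried a virus coding for EGFP, a fluorescent protein without a brain function of its own. Aged AAV-EGFP mice were 19 months old and carried the same control virus. Aged AAV-B3GNT3 mice were also 19 months old and carried a virus coding for EGFP together with B3GNT3, a glycosyltransferase that extends O-linked sugar chains of mucins. In all 9 mice the virus (AAV-PHP.V1) was given into the retro-orbital vein 8 weeks before the tissue was taken, with a promoter derived from the endothelial gene CLDN5, so that neurons and glia were not the intended site of expression. No mouse was without virus, and no young mouse received AAV-B3GNT3. Hereafter, ageing is the comparison of aged AAV-EGFP with young AAV-EGFP mice, treatment is that of aged AAV-B3GNT3 with aged AAV-EGFP mice, and both rest on the same 3 aged AAV-EGFP samples.

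As background, AMPA receptors are tetramers of the Gria subunits and carry most of the fast excitatory current in the brain. Gria2, once edited in its messenger RNA, makes the channel nearly impermeable to calcium, so receptors without it let calcium through. NMDA receptors open only when glutamate binds while the membrane is depolarised, they pass calcium, and they need the obligatory Grin1 subunit, which binds glycine, together with Grin2 subunits, which bind glutamate, or Grin3a, which lowers the calcium flow. Grin2b dominates early in life and Grin2a is added as the forebrain matures, Grin2c is known from cerebellar granule cells and astrocytes, and Grin2d from interneurons. Oligodendrocyte precursor cells (OPCs) receive synapses from neurons and carry AMPA receptors.

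The libraries held 6331 to 10264 nuclei each with 47332047 to 79964605 molecules (UMIs), and 70278 of 77823 nuclei passed the filters. The lowest median depth among kept nuclei was 3006 UMIs, in aged AAV-B3GNT3 replicate 2, and the highest library median was 5293. Classes were rebuilt from marker genes, and each name means that the nuclei were like that cell type: 20359 excitatory neurons, 8235 inhibitory neurons, 8431 astrocytes and 2667 OPCs. All defining markers of these 4 classes were found in every library. Among inhibitory neurons, 28.0 to 54.7% per library were like striatal projection neurons, which are not cells of the labelled tissue. Libraries shared 7 to 37 barcodes per pair, at most 0.414% of the smaller library. Values below are UMI counts in the usual per-million unit (CPM) in the summed nuclei of 1 class in 1 mouse, the replicate is the mouse, and p-values measure the spread between mice. The CPM of a gene in a class does not depend on how many nuclei of that class were caught.

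Most of the members are long genes, which may matter because nuclear RNA is rich in introns. On mouse build GRCm38 (GENCODE vM21), Gria1 spans 319 kb at chr11:57011387-57330244, Gria2 121 kb at chr3:80681450-80802835, Gria3 278 kb at chrX:41400854-41678601 and Gria4 378 kb at chr9:4417896-4796234. Grin2a covers 428 kb at chr16:9567898-9995560, Grin2b 460.3 kb at chr6:135713233-136173511 and Grin3a 184 kb at chr4:49661611-49845744. The short members are Grin2d with 46.5 kb at chr7:45831883-45878378, Grin1 with 28.0 kb at chr2:25291181-25319187 and Grin2c with 18.1 kb at chr11:115249169-115267243. Gria1 and Gria3 lie on the plus strand and the other 8 on the minus strand. Grin3a holds Ppp3r2 on its own strand, so for Grin3a the division of reads between overlapping genes is uncertain. Grin1 has an antisense gene (Grin1os), and Grin2b and Grin2d overlap genes on the opposite strand. Whether these opposite-strand genes bear on the counts was not tested.

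RefSeq promoter windows, from 250 bases before to 50 bases after the start, were at hand for 5 of the 10 members (Gria2, Gria4, Grin1, Grin2c and Grin2d, build GRCm38.p6). The GC box was searched as GGGCGG and as CCGCCC on the other strand, and occurred in 2 of them, Grin1 and Grin2c. These windows are shown because their genes were the members with the most contrasting spread over cell types, Grin1 in every neuron type and Grin2c nearly restricted to astrocytes. Capitals mark the GC box. The whole windows lie at chr2:25319138-25319437 on the minus strand for Grin1 and at chr11:115267194-115267493 on the minus strand for Grin2c.
Grin1: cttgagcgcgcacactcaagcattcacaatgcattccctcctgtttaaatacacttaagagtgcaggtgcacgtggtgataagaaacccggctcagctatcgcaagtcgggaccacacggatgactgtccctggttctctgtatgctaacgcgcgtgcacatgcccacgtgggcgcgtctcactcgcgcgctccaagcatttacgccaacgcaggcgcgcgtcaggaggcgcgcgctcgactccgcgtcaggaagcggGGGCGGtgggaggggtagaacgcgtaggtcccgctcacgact
Grin2c: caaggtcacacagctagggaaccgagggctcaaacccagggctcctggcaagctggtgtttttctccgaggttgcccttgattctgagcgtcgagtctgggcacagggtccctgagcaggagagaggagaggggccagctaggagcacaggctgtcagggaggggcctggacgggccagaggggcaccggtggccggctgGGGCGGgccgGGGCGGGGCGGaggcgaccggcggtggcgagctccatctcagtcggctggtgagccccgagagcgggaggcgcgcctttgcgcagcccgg
Grin1 held 1 match and Grin2c 3, of which 2 overlap. The same letters occurred in 35.7% of 32851 promoter windows of this length, so their presence sets neither gene apart.

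Among the AMPA subunits, Gria1, known for its role in hippocampal potentiation, was highest in the hippocampal types and Sst-like interneurons (means of 9 samples ± SD). CA1-like neurons had 4342 ± 385 CPM, Sst-like neurons 4116 ± 624, CA3-like neurons 4000.4 ± 291 and dentate granule-like neurons 3793 ± 351, neighbours that did not differ beyond their spread. Cortical L4/5-like neurons, at 567 ± 52.0 CPM, and near-projecting neurons, at 575 ± 47.3, were the lowest of the neuron types. Gria2 was more even, from 2836 ± 386 CPM in CA3-like to 1071 ± 108 in Lamp5-like neurons, and reached 1737 ± 115 in astrocytes and 1481 ± 134 in OPCs. Gria3 ranged from 2119 ± 332 CPM in extratelencephalic (ET) neurons to 265 ± 73.7 in Vip-like neurons. Gria4 was lowest in the hippocampal types that led Gria1, and ran from 2554 ± 459 CPM in Pvalb-like interneurons, its known site in fast-spiking cells, and 1895 ± 398 in L4/5-like neurons to 233 ± 49.3 in dentate granule-like neurons. Sst-like neurons, at 1864 ± 324 CPM of Gria4, held high levels of both. OPCs had 1029.7 ± 133 CPM of Gria4 and astrocytes 131 ± 48.8. All of these levels are descriptions, since the nuclei were sorted into types by their expression, although the members themselves were left out of the genes used for that.

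Grin1, the obligatory NMDA subunit, varied little among neurons, from 620.4 ± 130.0 CPM in ET neurons to 362 ± 59.0 in Pvalb-like neurons, with 72.4 ± 23.8 in OPCs and 42.7 ± 11.0 in astrocytes. Grin2a was highest in CA1-like (4674 ± 642 CPM), Lamp5-like (4339 ± 568) and dentate granule-like neurons (4275 ± 485), which did not differ beyond their spread, and lowest in L6b-like (823 ± 99.9) and Vip-like neurons (832 ± 116). Grin2b spanned a narrower range, from 2776 ± 443 CPM in CA1-like to 1259.6 ± 116 in near-projecting neurons. Grin2c was an astrocyte gene here, with 382 ± 58.0 CPM in astrocytes (288 to 468 over the 9 samples) against means of 0.874 to 3.11 in the neuron types. Grin2d marked the interneurons, with 72.0 ± 9.24 CPM in Lamp5-like, 61.6 ± 15.1 in Vip-like, 43.0 ± 5.39 in Pvalb-like and 41.2 ± 9.49 in Sst-like neurons. Next came OPCs with 16.9 ± 3.46 CPM and L6b-like neurons with 11.2 ± 5.55, and the other neuron types had means of 2.59 to 5.61. Grin3a was led by Sst-like neurons at 989 ± 255 CPM and OPCs at 485 ± 92.4, well above near-projecting neurons at 153 ± 43.0 and Lamp5-like neurons at 128 ± 26.0. Microglia, a class without fast glutamatergic synapses, are given for comparison: they showed 683 ± 218 CPM of Gria2, 371 ± 138 of Grin2b, 329.6 ± 129.7 of Grin2a, 300.3 ± 126 of Gria1, 83.7 ± 27.1 of Grin1 and 5.31 ± 4.55 of Grin2d. Their median depth per library was 1270 to 2097 UMIs per nucleus, against 8450 to 12282 in excitatory neurons and 2555 to 3604 in astrocytes. The share of free RNA in microglia was not estimated, so their level is not a measured background for the other classes. Astrocytes lay below the microglial mean for Gria3, Gria4, Grin1, Grin2a and Grin2d, and OPCs for Gria1, Grin1, Grin2a and Grin2b.

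**Figure D1:**
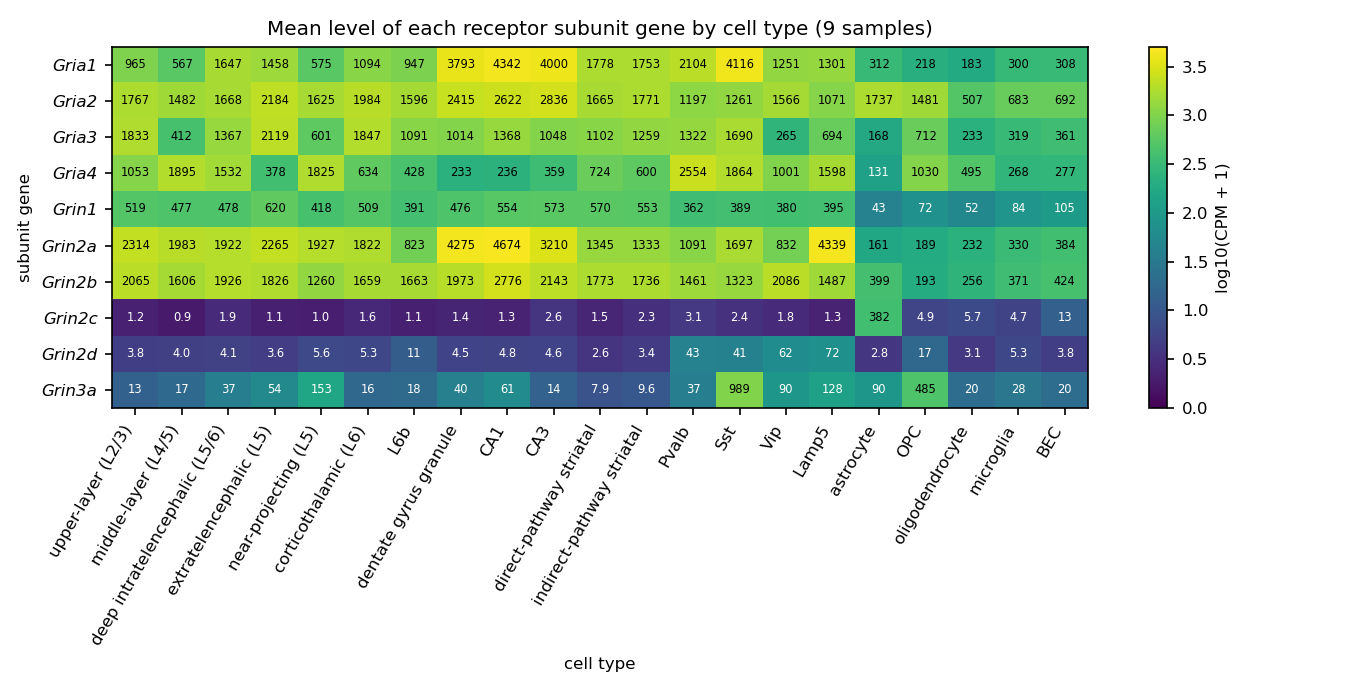
Mean level of the 10 subunit genes over 9 samples, as log10(CPM + 1) on the colour scale, with genes in the vertical and cell types in the horizontal direction (BEC, brain endothelial cells) and the mean CPM printed in each field. Grin2c stands out in astrocytes (382 CPM), Grin3a in Sst-like neurons (989 CPM) and OPCs (485 CPM), and Grin2d in the 4 interneuron types.

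To set levels of different genes side by side, they were divided by the length of the gene. Whether UMIs scale with length was not tested, and it is not known whether intronic reads were counted. Without this division, Grin2a and Grin2b exceed Grin1 in excitatory neurons. Per kb of gene span in excitatory neurons, Grin1 (17.5 CPM per kb) and Gria2 (14.9) led, followed by Grin2a (5.18), Gria3 (4.70), Gria1 (4.44), Grin2b (3.96) and Gria4 (2.74). Grin3a (0.19), Grin2d (0.10) and Grin2c (0.07) lay far below. Inhibitory neurons had the same leaders, Grin1 at 15.9 and Gria2 at 11.4 CPM per kb, with Grin3a at 1.30 and Grin2d at 0.66. Astrocytes differed in kind, with Grin2c at 21.2 and Gria2 at 14.3 CPM per kb as the leading members. Gria2 was also high in OPCs, at 12.2 CPM per kb.

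The share of Gria2 among all AMPA subunit UMIs was computed because it bears on calcium permeability, with the limit that long genes may weigh more. It was 32.5 ± 1.36% in excitatory and 24.6 ± 1.88% in inhibitory neurons, 43.1 ± 3.38% in OPCs and 74.3 ± 5.60% in astrocytes. Among neuron types it was lowest in Sst-like (14.2 ± 1.18%) and Pvalb-like (16.8 ± 1.91%) interneurons and highest in L6b-like (39.3 ± 2.03%) and Vip-like neurons (38.3 ± 1.65%). The interneuron subclasses were thus at both ends of the order.

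The balance of Grin2a and Grin2b, given as the log2 ratio of their UMIs, split the neuron types as widely. Lamp5-like neurons (1.55 ± 0.17), dentate granule-like neurons (1.12 ± 0.16) and CA1-like neurons (0.76 ± 0.08) lay on the Grin2a side. Vip-like (−1.33 ± 0.25) and L6b-like neurons (−1.01 ± 0.13) lay on the Grin2b side, as did Pvalb-like neurons at −0.43 ± 0.27. In excitatory neurons as a whole the ratio was 0.32, 0.24 and 0.39 in the young mice, 0.07, 0.09 and 0.22 in the aged AAV-EGFP mice, and 0.42, 0.39 and 0.42 in the aged AAV-B3GNT3 mice. The aged AAV-EGFP samples were below all others, without overlap. The group means differed by −0.19 with ageing and by 0.28 with treatment, each at p = 0.1 in a two-sided exact permutation test, the smallest that 3 against 3 can give, and at adjusted p = 0.2 over the 6 ratio tests. In inhibitory neurons the ratio was −0.01, −0.26 and 0.09 in young, −0.23, −0.29 and −0.23 in aged AAV-EGFP and −0.12, −0.03 and −0.22 in aged AAV-B3GNT3 mice, with an ageing difference of −0.19 at exact permutation p = 0.3 and overlapping groups. Its treatment difference was 0.12 at exact permutation p = 0.1 and adjusted p = 0.2, with each treated sample above the aged controls. That value was 0.077 without aged AAV-B3GNT3 replicate 2, and the ageing value was −0.11 without young replicate 3 and −0.29 without young replicate 2. Layer L2/3-like neurons, the largest excitatory type, had 0.22, 0.13 and 0.27 in young, −0.16, −0.14 and 0.06 in aged AAV-EGFP and 0.45, 0.40 and 0.31 in aged AAV-B3GNT3 mice, again with the aged AAV-EGFP samples lowest. This was not so in every type: near-projecting neurons had 0.72, 0.51 and 0.82 in aged AAV-EGFP against 0.59, 0.32 and 0.47 in aged AAV-B3GNT3 mice, and the groups overlapped in Sst-like and L4/5-like neurons.

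**Figure D2:**
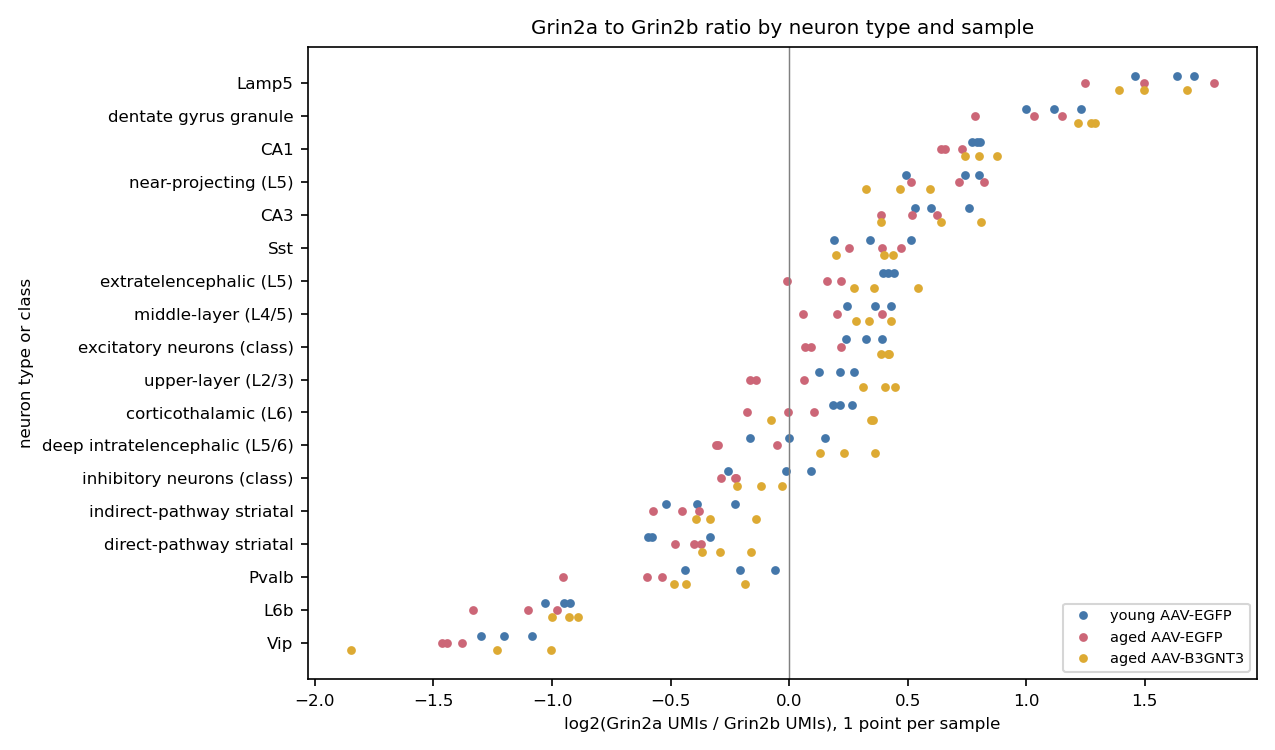
Log2 ratio of Grin2a to Grin2b UMIs by neuron type and neuron class, with 1 point per sample coloured by group. The means of the types span from −1.33 in Vip-like to 1.55 in Lamp5-like neurons.

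The first comparison asked whether the subunit genes differ in excitatory neurons with age. Grin2d rose and Grin2c fell, both from very low levels, while the other 8 members did not pass the test. Grin2c was at 2.59, 1.28 and 1.31 CPM in young mice, at 0.465, 0.589 and 0.381 in aged AAV-EGFP mice and at 1.42, 2.21 and 1.20 in aged AAV-B3GNT3 mice. All 3 aged AAV-EGFP samples were below the other 6. The ageing difference was −1.82 ± 0.38 on the log2 scale (SE; edgeR quasi-likelihood test, adjusted p = 0.0137), on means of 44 UMIs per young and 13 per aged AAV-EGFP sample. Grin2d was at 3.79, 3.34 and 3.92 CPM in young, at 5.16, 5.45 and 7.04 in aged AAV-EGFP and at 3.88, 4.17 and 5.14 in aged AAV-B3GNT3 mice. The young and aged AAV-EGFP samples did not overlap, and the difference was 0.68 ± 0.19 (edgeR, adjusted p = 0.033). These were 2 of 10 members tested, beside 14.0% of all 16923 genes tested in this comparison, of which 6.66% fell. At an unadjusted p below 0.05 there were 4 members, and DESeq2 called 4. Both called members lay below their microglial mean, Grin2c at 1.27 CPM over all samples against 4.73 and Grin2d at 4.65 against 5.31. The estimated share of free RNA in excitatory neurons was 7.21 to 8.66% in young, 4.17 to 6.31% in aged AAV-EGFP and 6.11 to 8.68% in aged AAV-B3GNT3 samples, and the summed level of 7 astrocyte markers there was 591 to 736, 565 to 602 and 578 to 632 CPM. That of 6 oligodendrocyte markers was 188 to 229, 109 to 140.3 and 187 to 225 CPM, lowest in the aged AAV-EGFP samples without overlap, and that of 6 inhibitory markers was 102 to 148, 46.5 to 106 and 74.8 to 139 CPM. Their part in the Grin2c and Grin2d differences was not tested. The Grin2c call was lost without aged AAV-EGFP replicate 3, at adjusted p = 0.0546. With free RNA subtracted, Grin2c fell below the count filter in this class and was not tested. The Grin2d call was lost with equal weight for each neuron type (0.32, adjusted p = 0.329), without an upper gene limit, and without aged AAV-EGFP replicates 2 or 3 or any 1 young sample.

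Of the AMPA subunits in excitatory neurons, Gria4 came closest to the threshold. Its levels were 954, 1066 and 858 CPM in young, 1319, 1329.6 and 1105 in aged AAV-EGFP and 933, 817 and 946 in aged AAV-B3GNT3 mice. The aged AAV-EGFP samples lay above all others, with an ageing difference of 0.38 ± 0.12 at adjusted p = 0.0518 and a treatment difference of −0.48 ± 0.12 at adjusted p = 0.0554 (edgeR). Each difference was called in 4 alternative settings, DESeq2 among them. Gria3 had 1249, 1371 and 1196 CPM in young, 1590.0, 1526 and 1322 in aged AAV-EGFP and 1142, 1113 and 1248 in aged AAV-B3GNT3 mice. Its aged AAV-EGFP samples overlapped with the young and lay above the treated ones (0.22, adjusted p = 0.193, and −0.34, adjusted p = 0.0966). Gria1 ranged from 1129 to 1649 CPM and Gria2 from 1605 to 2069 CPM over the 9 samples, with overlapping groups in both comparisons.

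Among the NMDA subunits, Grin2a was at 2533, 2484 and 2740.3 CPM in young, at 1908, 2454 and 1756 in aged AAV-EGFP and at 1913, 2119 and 2018 in aged AAV-B3GNT3 mice. Every aged sample of either virus was below every young one, with an ageing difference of −0.34 at adjusted p = 0.0986 and a treatment difference of −0.02. Grin2b was at 2025, 2104 and 2088 CPM in young, at 1821, 2300.4 and 1509 in aged AAV-EGFP and at 1427, 1618 and 1512 in aged AAV-B3GNT3 mice. The treated samples lay below the young and overlapped with the aged controls (treatment −0.31, adjusted p = 0.218). Grin1 was at 454, 394 and 421 CPM in young, at 423, 544 and 516 in aged AAV-EGFP and at 608, 531 and 525 in aged AAV-B3GNT3 mice. Treated samples were above all young samples and overlapped with the aged controls (ageing 0.23, adjusted p = 0.199).

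**Figure D3:**
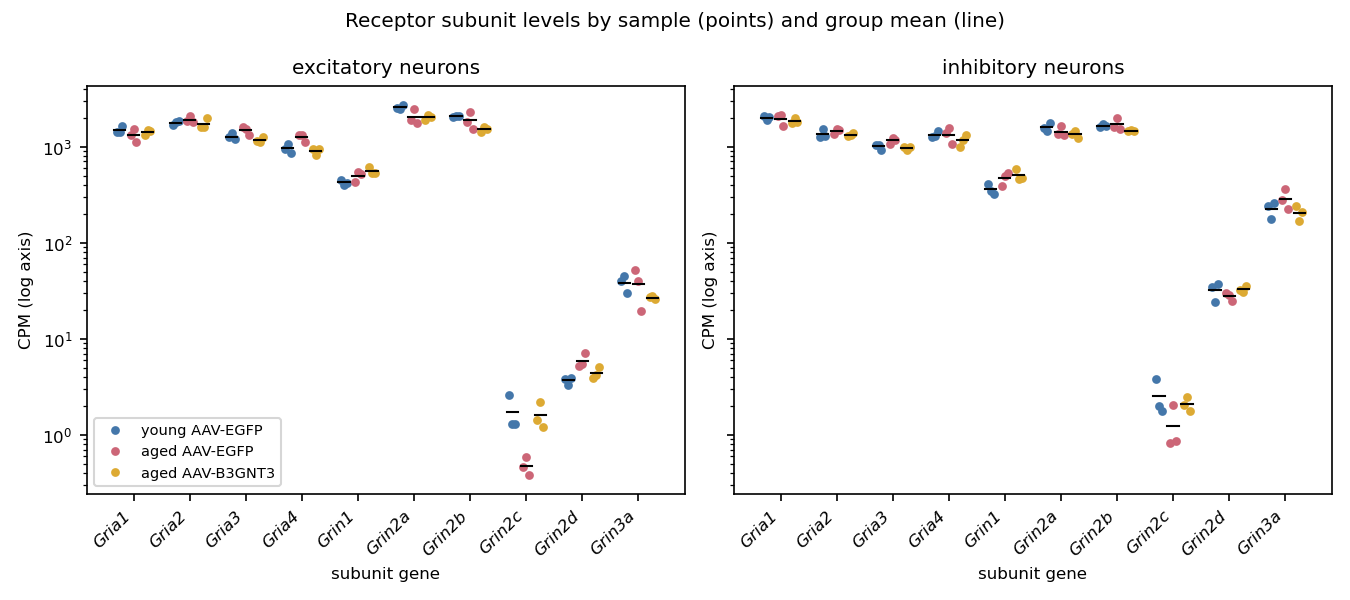
CPM of each subunit gene in each of the 9 samples, on a log axis, for excitatory and inhibitory neurons, with points coloured by group and lines at the group means. In excitatory neurons the 3 aged AAV-EGFP points of Grin2c (0.381 to 0.589 CPM) lie below the other 6, while Gria1 and Gria2 overlap among groups.

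The second comparison asked what B3GNT3 expression changed in aged excitatory neurons. Grin2c was the 1 member of 10 called, with 2.54% of all genes called, and 4 members had an unadjusted p below 0.05 (DESeq2 called 3). It rose by 1.72 ± 0.39 on the log2 scale (edgeR, adjusted p = 0.0448) from a mean of 13 to 38 UMIs per sample. The call was not stable, since it was lost without aged AAV-B3GNT3 replicates 1 or 2, aged AAV-EGFP replicates 2 or 3, or young replicates 2 or 3 (adjusted p up to 0.19). It was also lost in the fit with only the 2 groups and with the correction for gene span (adjusted p = 0.0593). With free RNA subtracted, Grin2c was below the count filter here too. Set directly against young mice, treated aged mice had 0 of 10 members called by edgeR in excitatory neurons, beside 3.65% of all genes, with 3 at an unadjusted p below 0.05 and 2 by DESeq2. In that comparison Grin1 had a difference of 0.39 (adjusted p = 0.0828) and Grin2b of −0.45 (adjusted p = 0.0994). The median log2 difference over the 10 members in excitatory neurons was 0.03 with ageing and −0.22 with treatment, against 0.02 and 0.01 over all genes tested. For genes of at least 100 kb the ageing median was −0.08 and for those under 20 kb it was 0.14, so length moved with ageing in this class.

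In inhibitory neurons 0 of 10 members were called with ageing (4.33% of all genes), with treatment (0.616%) or between treated aged and young mice (0.706%). edgeR gave 2, 1 and 1 members at an unadjusted p below 0.05 in these comparisons, and DESeq2 called 0 in each. Grin1 was at 406, 345 and 325 CPM in young, at 387, 500.0 and 535 in aged AAV-EGFP and at 583, 465 and 466 in aged AAV-B3GNT3 mice. Its treated samples lay above the young ones (0.49, adjusted p = 0.146) and its aged control samples overlapped with both (ageing 0.40, adjusted p = 0.120). Grin2d, the interneuron subunit, ranged from 23.9 to 37.1 CPM in young, 24.5 to 29.7 in aged AAV-EGFP and 30.7 to 35.7 in aged AAV-B3GNT3 samples. Grin3a ranged from 177 to 258, 225 to 359 and 167 to 241 CPM in the same order, with overlapping groups (treatment −0.48, adjusted p = 0.198). The shares of striatal-like neurons given above differ among libraries in this class.

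Whether excitatory and inhibitory neurons responded differently was tested directly with limma on the difference of their log2 CPM within each sample. With ageing 0 of 10 members passed, beside 0.014% of all genes. Of the members 3 had an unadjusted p below 0.05, as did 1426 of all 14299 genes tested. For treatment 0 of 10 passed, beside 0.0% of all genes, with 2 members and 702 of all 14299 genes below 0.05. The ageing difference of Grin2d was higher in excitatory neurons by 0.87 ± 0.19 at adjusted p = 0.151, and that of Gria4 by 0.41 at adjusted p = 0.377. DESeq2 has no counterpart to this test here.

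Within 15 neuron types, 127 pairs of a member and a type were tested, and 4 were called with ageing, beside 4.62% of all gene and type pairs. There were 36 pairs at an unadjusted p below 0.05 and 4 by DESeq2, counts without a share of all pairs here. L2/3-like neurons held 3 of the 4 edgeR calls, where 14.0% of all genes were called. Gria4 was there at 1003, 1003 and 837 CPM in young and at 1447, 1355 and 1034 in aged AAV-EGFP mice, and rose by 0.43 ± 0.13 (edgeR, adjusted p = 0.040). Grin2a was at 2809, 2581 and 2926 CPM in young and at 1748, 2481 and 1916 in aged AAV-EGFP mice, and fell by 0.44 ± 0.14 on the log2 scale (edgeR, adjusted p = 0.0425). Neither gene's groups overlapped. Grin2d had 1.97, 2.96 and 3.49 CPM against 5.48, 6.88 and 5.09, and rose by 1.05 ± 0.32 (edgeR, adjusted p = 0.0389) on means of 13.33 and 26.33 UMIs. These 3 calls were kept in 7, 8 and 8 of 15 alternative settings, and leaving out any 1 young sample lost each of them. In corticothalamic (CT) neurons, where 12% of all genes were called, Grin3a was at 38.8, 25.0 and 14.5 CPM in young, at 10.1, 12.6 and 5.11 in aged AAV-EGFP and at 11.0, 13.5 and 17.7 in aged AAV-B3GNT3 mice. Its young samples all lay above the aged controls, and it fell by 1.49 ± 0.33 on the log2 scale (edgeR, adjusted p = 0.0106), a call lost only without aged AAV-EGFP replicate 3. Over all samples, Grin3a in CT neurons (16.5 CPM) and Grin2d in L2/3-like neurons (3.79 CPM) lay below their microglial means (28.4 and 5.31 CPM).

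With treatment edgeR called 0 of 127 pairs in the neuron types, beside 1.05% of all pairs, with 30 at an unadjusted p below 0.05 and 3 called by DESeq2 (1 each of Gria3, Gria4 and Grin2b). Between treated aged and young mice 3 pairs were called, all in L2/3-like neurons, beside 1.34% of all pairs and 5.37% of genes in that type. At an unadjusted p below 0.05 there were 36 pairs, and DESeq2 called 9. Grin1 was at 467, 408 and 435 CPM in young and at 643, 593 and 563 in aged AAV-B3GNT3 mice (0.46 ± 0.12, edgeR, adjusted p = 0.0339). Grin2b was at 2418, 2362 and 2421 against 1513, 1742 and 1611 CPM (−0.57 ± 0.14, edgeR, adjusted p = 0.0268). Grin3a was at 14.9, 17.0 and 19.1 against 8.95, 8.88 and 9.41 CPM (−0.90 ± 0.21, edgeR, adjusted p = 0.0206). None of these 3 had overlapping groups, and each was lost without aged AAV-B3GNT3 replicates 1 or 3 or young replicates 2 or 3, with adjusted p up to 0.183, 0.143 and 0.107 over their alternatives. Grin3a in this type, at 12.98 CPM over all samples, also lay below its microglial mean.

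The direction of several members was shared by all neuron types, which come from the same 9 mice and so do not count as repeats. The share of all genes with 1 direction in every type is not given here, so these directions may not be particular to the members. Gria2 was higher in 15 of 15 types with ageing (0.03 to 0.30 on the log2 scale) and lower in 15 of 15 with treatment (−0.26 to −0.03), with 1 and 0 types at an unadjusted p below 0.05 and 0 called by edgeR or DESeq2. Gria3 was higher in 15 of 15 with ageing (0.01 to 0.43) and lower in 15 of 15 with treatment (−0.66 to −0.17), with 9 and 8 types at an unadjusted p below 0.05, 0 called by edgeR and 0 and 1 by DESeq2. Gria4 was higher in 13 of 15 with ageing and lower in 15 of 15 with treatment (−0.57 to −0.10). Grin1 was higher in 15 of 15 with ageing (0.14 to 0.48, lowest adjusted p 0.104) and in 15 of 15 between treated aged and young mice (0.20 to 0.55). Grin2b was lower in 15 of 15 types with treatment (−0.49 to −0.14). Gria1 had no common direction, with 8 types higher and 7 lower with ageing. The 2 comparisons share the aged AAV-EGFP samples, so a high value in these samples gives opposite signs in both.

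**Figure D4:**
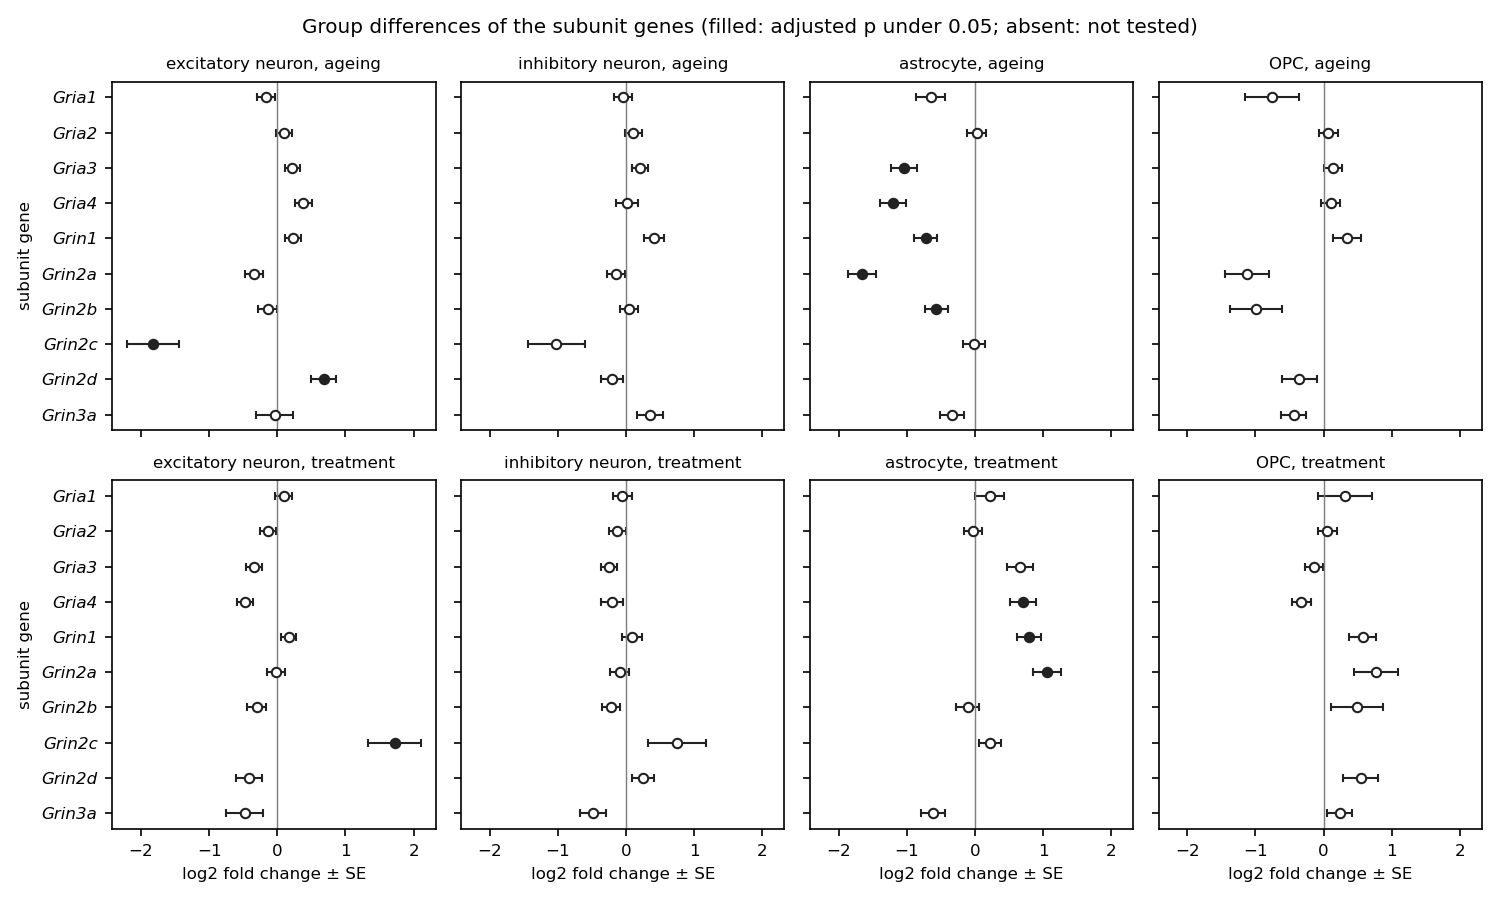
Log2 fold change with its SE for each subunit gene in the 4 classes, with ageing in the upper and treatment in the lower panels, and with filled points for an adjusted p below 0.05 and no point where a gene was not tested. Astrocytes hold 5 of the 7 filled points with ageing, of which Grin2a lies lowest at −1.65.

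Astrocytes held the most called members. With ageing 5 of 9 fell, beside 11.7% of all genes called and 6.95% that fell, with 6 at an unadjusted p below 0.05 and 6 by DESeq2. Grin2a was at 263, 201 and 271 CPM in young, at 71.3, 96.9 and 65.4 in aged AAV-EGFP and at 138, 214 and 134 in aged AAV-B3GNT3 mice. The aged AAV-EGFP samples were the lowest, and the gene fell by 1.65 ± 0.21 on the log2 scale (edgeR, adjusted p = 0.000499). Gria4 was at 173, 197 and 179 CPM in young, at 91.0, 73.1 and 75.004 in aged AAV-EGFP and at 88.7, 151 and 152 in aged AAV-B3GNT3 mice, and fell by 1.20 ± 0.19 (edgeR, adjusted p = 0.0013). Gria3 was at 226, 227 and 217 CPM in young, at 111, 142 and 74.6 in aged AAV-EGFP and at 139.8, 195 and 181 in aged AAV-B3GNT3 mice, and fell by 1.04 ± 0.20 (edgeR, adjusted p = 0.00438). Young and aged AAV-EGFP samples overlapped in none of these genes, and treated samples reached into the aged control range in Gria3 and Gria4. Grin1 was at 50.2, 42.8 and 51.8 CPM in young, at 26.3, 34.6 and 26.8 in aged AAV-EGFP and at 50.2, 56.2 and 45.2 in aged AAV-B3GNT3 mice, and fell with age by 0.72 ± 0.17 (edgeR, adjusted p = 0.0151). Grin2b was at 523, 459 and 581 CPM in young, at 406, 382 and 266 in aged AAV-EGFP and at 283, 349.8 and 346 in aged AAV-B3GNT3 mice, and fell by 0.57 ± 0.17 (edgeR, adjusted p = 0.0416). With the correction for gene span Grin2b was at −0.12 (adjusted p = 0.644), and the call was lost, as it was in 7 of 9 fits without 1 library and with the replicate block (adjusted p = 0.0599). The Grin1 call was lost without aged AAV-EGFP replicate 3 or young replicate 3, and its difference changed sign with doublet-marked nuclei kept (0.088, adjusted p = 0.776). In that setting all 5 ageing calls in astrocytes were lost.

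With treatment 3 of 9 members rose in astrocytes, beside 4.13% of all genes called and 1.65% that rose, with 5 at an unadjusted p below 0.05 and 4 by DESeq2. They were Grin2a (1.06 ± 0.21, edgeR, adjusted p = 0.0177), Grin1 (0.79 ± 0.17, adjusted p = 0.0222) and Gria4 (0.71 ± 0.19, adjusted p = 0.0489). For Grin1 and Grin2a no treated sample overlapped with the aged controls, and for Gria4 1 treated sample did. The Grin2a call was lost without aged AAV-B3GNT3 replicate 2 and that of Grin1 without aged AAV-B3GNT3 replicates 1 or 2 or aged AAV-EGFP replicate 3. The Gria4 call was kept in 7 of 18 alternatives and lost with the replicate block (adjusted p = 0.0664). With doublet-marked nuclei kept all 3 calls were lost, and Grin2a (−0.028, adjusted p = 0.965) and Gria4 (−0.18, adjusted p = 0.739) changed sign. Between treated aged and young mice 2 of 9 fell, beside 2.9% of all genes, with 4 at an unadjusted p below 0.05 and 2 by DESeq2. These were Grin3a (−0.95 ± 0.17, edgeR, adjusted p = 0.0114) and Grin2b (−0.67 ± 0.17, adjusted p = 0.0457). Grin3a was at 126, 127 and 98.4 CPM in young, at 84.4, 119.6 and 75.4 in aged AAV-EGFP and at 56.4, 59.4 and 67.1 in aged AAV-B3GNT3 mice, the treated samples being below all others. Its call was lost without aged AAV-B3GNT3 replicate 1 or young replicate 2 (adjusted p up to 0.0816). The Grin2b call was kept in 7 of 18 alternatives and was lost with the replicate block (adjusted p = 0.0646).

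The 2 members that were highest in astrocytes per length did not pass the test. Gria2 was at 1689, 1673 and 1818 CPM in young, at 1794, 1892 and 1592 in aged AAV-EGFP and at 1553, 1827 and 1792 in aged AAV-B3GNT3 mice (0.03 with ageing, −0.03 with treatment). Grin2c was at 425, 288 and 381 CPM in young, at 331, 393 and 359 in aged AAV-EGFP and at 449, 468 and 348 in aged AAV-B3GNT3 mice (−0.02 with ageing, adjusted p = 0.968, and 0.23 with treatment, adjusted p = 0.471). The groups overlapped for both genes. Gria1, at 383, 455 and 340.0 CPM in young and 316, 192 and 245 in aged AAV-EGFP mice, had a difference of −0.65 at adjusted p = 0.0606, without overlap. It was called in 5 alternative settings, DESeq2 among them (−0.85 to −0.64). The Gria2 share of AMPA subunit UMIs was 68.4, 65.5 and 71.2% in young, 77.6, 82.3 and 80.1% in aged AAV-EGFP and 78.2, 72.3 and 73.4% in aged AAV-B3GNT3 astrocytes. The ageing difference of 11.6 percentage points had exact permutation p = 0.1, the smallest possible, and adjusted p = 0.3 over the share tests. It was 5.93 points with doublet-marked nuclei kept and −1.04 points with free RNA subtracted. In the latter setting Gria3 and Gria4 fell below the count filter in astrocytes, so that value cannot show whether the difference held.

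Microglia do not form the synapses that these receptors serve, and their values are given here with no test. Their levels of Grin1 and Grin2a were lower in the aged AAV-EGFP samples too. Grin2a in microglia was at 449, 421 and 447 CPM in young, at 167, 282 and 104 in aged AAV-EGFP and at 329, 463 and 305 in aged AAV-B3GNT3 mice. Grin1 in microglia was at 113, 88.5 and 104 CPM in young, at 51.1, 62.0 and 37.1 in aged AAV-EGFP and at 106, 88.4 and 104 in aged AAV-B3GNT3 mice. In both genes the aged AAV-EGFP microglia lay below all other samples, as in astrocytes. Of the 13 called pairs of a member and a class, 10 lay below the mean level in microglia, among them 6 of 7 with ageing and 4 of 4 with treatment. The exceptions were astrocytic Grin2b (399 against 371 CPM) and Grin3a (90.4 against 28.4 CPM). Free RNA was estimated at 23.9 to 36.0% of astrocyte UMIs in young, 21.7 to 30.2% in aged AAV-EGFP and 28.8 to 39.2% in aged AAV-B3GNT3 samples. The summed level of 7 excitatory neuron markers in astrocytes was 316 to 361, 191 to 367 and 246 to 295 CPM in the same order, that of 6 inhibitory markers was 777 to 1008, 844 to 969 and 745 to 942 CPM, and no list was wholly at 0. OPC markers in astrocytes summed to 194 to 206 CPM in young, 111 to 132 in aged AAV-EGFP and 138 to 173 in aged AAV-B3GNT3 samples, without overlap. The part of neuronal or OPC RNA in the astrocyte differences was not tested. With free RNA subtracted, the called astrocyte pairs other than Grin3a fell below the count filter, while Grin3a between treated aged and young mice stayed called (−1.30, edgeR, adjusted p = 0.0433). Excitatory Grin2d with ageing stayed called as well (0.84, adjusted p = 0.0223), while excitatory Grin2c was below the count filter. With doublet-marked nuclei kept, the ageing calls of Gria3, Gria4 and Grin2a in astrocytes were lost, although leaving out any 1 of the 9 libraries lost none of the 3.

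**Figure D5:**
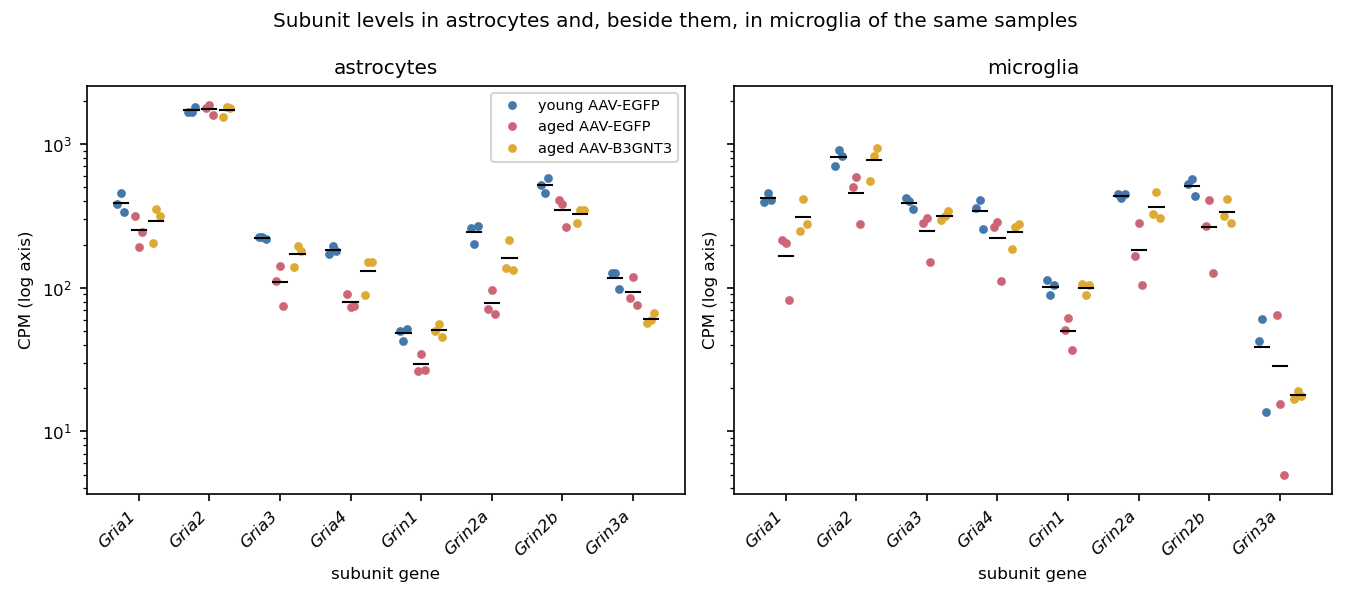
CPM of 8 subunit genes in each sample, on a log axis, in astrocytes and in microglia, with points coloured by group and lines at the group means. The 3 aged AAV-EGFP samples are the lowest for Grin1 and Grin2a in both classes, and Gria2 shows overlapping groups in astrocytes (1553 to 1892 CPM over the 9 samples).

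In OPCs 0 of 9 members were called by edgeR with ageing (0.772% of all genes), with treatment (0.124%) or between treated aged and young mice (0.153%). At an unadjusted p below 0.05 there were 3, 3 and 1 members, and DESeq2 called 0 in each. These counts changed in several settings, for which the share of all genes called is not given here. Without aged AAV-EGFP replicate 1, ageing called Gria1 (−1.66), Grin2a (−1.55), Grin2b (−1.82) and Grin3a (−0.63), treatment called Gria1 (1.20), Grin1 (0.87), Grin2a (1.18) and Grin2b (1.31), and Grin1 was called between treated aged and young mice (0.90). Without a count filter, ageing called Gria1, Grin2a and Grin2b, treatment Grin2a, and the third comparison Grin1, which was also called with only 2 groups in the fit. The summed level of 6 oligodendrocyte markers in OPCs was 1630.4, 2106 and 876 CPM in young, 1831, 458 and 370 in aged AAV-EGFP and 518, 436 and 390 in aged AAV-B3GNT3 mice, so that aged AAV-EGFP replicate 1 stood apart from its group, and the part of this in the OPC values was not tested. Gria2, Gria3 and Gria4, the AMPA subunits abundant in OPCs, ranged over the 9 samples from 1278 to 1722, from 636 to 816 and from 797 to 1238 CPM. Grin2a was at 200.3, 346 and 208 CPM in young, at 174, 119 and 56.2 in aged AAV-EGFP and at 246, 210.4 and 143 in aged AAV-B3GNT3 mice, the aged controls being below the young (−1.12 ± 0.32, adjusted p = 0.106). This difference passed with the replicate block (adjusted p = 0.0414) and with classes at resolution 1.0 (adjusted p = 0.0404). Grin1 was at 52.7, 56.4 and 47.2 CPM in young, at 90.9, 50.1 and 57.6 in aged AAV-EGFP and at 107, 93.1 and 96.3 in aged AAV-B3GNT3 mice. Its treated samples lay above all others, with a difference from young of 0.91 ± 0.20 at adjusted p = 0.0928. Grin3a was at 512, 587 and 576 CPM in young, at 512, 441 and 282 in aged AAV-EGFP and at 542, 473 and 443 in aged AAV-B3GNT3 mice. The Gria2 share of AMPA subunit UMIs in OPCs was 41.7, 39.1 and 42.9% in young, 36.6, 44.9 and 44.1% in aged AAV-EGFP and 46.3, 46.3 and 45.8% in aged AAV-B3GNT3 mice, highest in the treated samples. It differed by 4.24 points with treatment and by 4.89 points between treated aged and young mice, each at exact permutation p = 0.1 and adjusted p = 0.3. Without aged AAV-EGFP replicate 1 the treatment difference was 1.61 points. OPCs were summed from only 172 to 459 nuclei per library.

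Genes around these receptors were followed through 3 lists, named for AMPA receptor auxiliary subunits, NMDA receptor partners, and postsynaptic scaffolds and traffic. The lists are broad, and not every listed protein binds a subunit. They were chosen with earlier results of these data known. Of 27 tested genes of the auxiliary list in excitatory neurons, 6 fell with ageing and 0 rose (14 at an unadjusted p below 0.05, 7 lower by DESeq2), where 6.66% of all genes tested fell. Cacng2, or stargazin, which carries AMPA receptors to the synapse, was at 133, 125 and 139 CPM in young, at 77.6, 76.0 and 66.8 in aged AAV-EGFP and at 112, 128 and 83.1 in aged AAV-B3GNT3 mice (−0.85, edgeR, adjusted p = 0.00656). Its relative Cacng8 (−0.78) and Gsg1l (−0.48) fell too. Of 17 NMDA receptor partners 2 fell, Ephb2 (−0.79), a receptor kinase that binds Grin1, and the reelin receptor Lrp8 (−0.55), and DESeq2 called 5 lower. Of 36 postsynaptic scaffolds and trafficking proteins 9 fell and 0 rose (DESeq2 called 11 lower). Dlg4, or PSD-95, the main scaffold of the excitatory synapse, was at 155, 152 and 167 CPM in young, at 94.7, 87.3 and 76.8 in aged AAV-EGFP and at 104, 134 and 90.4 in aged AAV-B3GNT3 mice (−0.87). Homer1, which links NMDA receptor complexes to metabotropic receptors, was at 583, 793 and 611, at 385, 373 and 334, and at 397, 441 and 402 CPM (−0.86). No aged AAV-EGFP sample overlapped with the young in Cacng2, Dlg4 or Homer1, and only in Dlg4 did the treated samples reach into their range. The medians of the 3 lists were −0.24, −0.24 and −0.22, against 0.02 over all genes tested, with 22 of 27, 13 of 17 and 29 of 36 genes lower.

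With treatment 1 gene of these lists changed in excitatory neurons, where 2.54% of all genes were called. It was Olfm3, an AMPA receptor binding protein. It was at 197, 218 and 153 CPM in young, at 216, 274 and 232 in aged AAV-EGFP and at 139, 119 and 168 in aged AAV-B3GNT3 mice, and fell by 0.76 on the log2 scale (edgeR, adjusted p = 0.038). Its treated samples lay below all aged controls. The list medians with treatment were 0.04, 0.16 and 0.17, against 0.01 over all genes, with 6, 8 and 12 genes at an unadjusted p below 0.05. DESeq2 called 2 auxiliary genes higher and 1 lower, 1 partner higher, and 6 scaffold genes higher and 1 lower. Between treated aged and young mice 1 partner, Neto1 (−0.65), and 2 scaffold genes, Grip1 (−0.71) and Homer1 (−0.68), fell in this class, beside 3.65% of all genes called. DESeq2 called 1 auxiliary gene lower, 1 partner higher and 1 lower, and 5 scaffold genes lower.

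In inhibitory neurons 1 auxiliary subunit fell with ageing, Cacng8 (−0.53), while Lin7b of the scaffold list rose (0.78), where 4.33% of all genes were called. None of the partners was called by edgeR there, with 1 at an unadjusted p below 0.05 and 1 lower by DESeq2. With treatment 0 of 27, 0 of 17 and 0 of 36 genes were called by edgeR in this class, with 5, 4 and 8 at an unadjusted p below 0.05 and 0, 0 and 1 by DESeq2. In astrocytes, where 6.95% of all genes fell with ageing, 9 of 25, 5 of 16 and 14 of 35 genes of the lists fell and 0 rose (7, 4 and 13 lower by DESeq2), among them Lrrtm4 (−1.60), Neto1 (−1.48) and Dlgap2 (−1.74). The list medians there were −0.57, −0.64 and −0.51, against −0.00 over all genes, close to the −0.65 of the 9 subunit genes. With treatment, where 1.65% of all genes rose, 1, 2 and 4 of them rose (2, 2 and 5 higher by DESeq2), including Lrrtm4 (1.10), Rasgrf2 (1.20), Neto1 (0.87) and Shank2 (1.04). Between treated aged and young mice 1 of them rose in astrocytes, Olfm2 (1.51), and 4 fell, among them Shisa9 (−1.44) and Arc (−1.14), where 2.9% of all genes were called. DESeq2 called 0 of the lists higher and 3 auxiliary and 4 scaffold genes lower there. The levels of the list genes were not compared with those in microglia. The lists were counted only in the main fit and by DESeq2, not with doublets kept, free RNA subtracted or gene span correction. The part of free RNA and of OPC RNA in the astrocyte list counts was not tested. In OPCs 1 gene of the lists fell with ageing, Homer1 (−0.73), where 0.772% of all genes were called, and 0 were called with treatment by edgeR or DESeq2, where edgeR called 0.124% of all genes (3, 4 and 6 at an unadjusted p below 0.05). Rasgrf2, an exchange factor that binds NMDA receptors, rose in OPCs between young and treated aged mice (1.15), as 1 of 15 partners tested, where 0.153% of all genes were called.

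As a description over 19 cell types and 10347 genes, the genes with the pattern most like each member were found by Pearson's r of mean log2 CPM. The types share libraries and depth. Grin2c was most like Etnppl (0.982), Gjb6 (0.981), a connexin of astrocytes, and C030018K13Rik (0.980). Gria4 was most like Gm15398 (0.879), Frmd3 (0.822) and Dcx (0.820), Gria1 most like Dgkg (0.895), Upp2 (0.875) and Kcnab2 (0.871), and Grin3a most like Ugdh (0.856), Pabpn1 (0.807) and Dpysl3 (0.793). Between members, Grin1 and Grin2b were the most alike (0.947), followed by Grin1 and Grin2a (0.893) and by Grin2a and Grin2b (0.873), while Grin1 and Grin2c ran opposite (−0.750).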

How the data were processed

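Nuclei were sorted as Hoechst-positive singlets and sequenced with 10x Chromium 3′ v3.1 chemistry. The deposited files are matrices of raw UMI counts per gene and barcode, made by the authors with Cell Ranger on mm10 (GRCm38). The submitters' processing notes name version 4.0.0 and the matrix headers 7.2.0, and whether intronic reads were counted is not given in the sources used here. The deposited counts precede the study's removal of free RNA and doublets.

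Kept nuclei had 200 to 5000 genes and no more than 10% of UMIs from mitochondrial genes, and simulated-doublet scores removed 0.8% per 1000 barcodes (5.07 to 8.21% per library). Clustering used 2000 variable genes without the members, 15 components, 20 neighbours and resolution 0.3 (neuron types: 20 components, resolution 0.5). A cluster was named from at least 3 markers with fold 2 or more in at least 10% of its nuclei (types 5%), and the naming thresholds for types were set after the clusters were seen. Types needed 20 nuclei in every library, which left out CA3-like neurons from the tests. Unnamed nuclei made up 3.10 to 12.2% of a library.

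UMI counts were summed per mouse and class, passed through filterByExpr with its minimum count at 10, normalised with TMM factors and tested over all genes with edgeR's quasi-likelihood test (all 9 samples in 1 fit, Benjamini-Hochberg threshold 0.05, prior count 2). Shares of all genes called come from the main fit. Apart from the test between neuron classes, counts at an unadjusted p below 0.05 or by DESeq2 have no such share beside them. The share of free RNA was estimated as the median level of oligodendrocyte markers in neurons, or of excitatory neuron markers in glia, relative to the library's total profile. CPM use TMM-scaled totals and marker sums raw totals. The difference between neuron classes was tested with limma on log2 CPM, where the trend used the mean over both classes, a change made after poor recovery on simulated data. The ratio and share were tested by exact permutation, where 3 against 3 cannot go below 0.1. The edgeR test in excitatory neurons and the limma test were tried on simulated data, both for ageing only. The other fits were not. Alternatives were DESeq2, RLE size factors, no count filter, only 2 groups in the fit, the replicate block, resolution 1.0, doublets kept, no upper gene limit, free RNA subtracted, gene span correction, equal weight per type, and leaving out each sample.

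Named are all 10 members and per list, class and comparison at most the 3 called genes with the largest absolute log2 fold change. Likeness covered genes with at least 20 CPM in at least 1 type. The members and lists were chosen with earlier results of these data known. Coordinates were found for 31011 of 31053 genes, and 1 duplicate identifier of Pick1 was left out. Same-numbered replicates did not deviate together. Tools were Python 3.11.15, numpy 2.4.6, pandas 2.3.3, scipy 1.17.1, scikit-learn 1.9.0, python-igraph 0.11.9, matplotlib 3.10.9, R 4.3.3, edgeR 4.0.16, limma 3.58.1 and DESeq2 1.42.0.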

Additional observations from a re-analysis of the deposited data

How the results depend on the processing

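Nuclear UMIs may weigh long genes, which was not tested, free RNA was not removed before the tests, and 3 mice per group limit precision. Of 368 tested pairs of a member and a class or type, compared 6003 times with an alternative, 5824 kept their side of the threshold, 92 passed it newly, 84 no longer passed it and 3 called values changed sign, while 280 of the 5824 changed sign without passing it. The reversals came with doublet-marked nuclei kept, in astrocytes: Gria4 with treatment (−0.18), Grin1 with ageing (0.088) and Grin2a with treatment (−0.028). Causes were not tested.

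The counts of called members below stand without the share of all genes called in the same setting. They do not show whether a change was particular to the members. Members called over the 4 classes numbered 7 with ageing. They were 2 with doublets kept, 1 with equal weight per neuron type (neurons only, where the count had been 2), 1 with free RNA subtracted (fewer pairs pass the filter), 12 without a count filter and 7 with the replicate block. With treatment 4 were called, against 7 by DESeq2, 1 with doublets kept, 0 with free RNA subtracted, 9 without a filter, 2 with only 2 groups in the fit and 3 with the replicate block. Between treated aged and young mice 2 were called, against 4 by DESeq2, 5 without a filter, 6 with only 2 groups, and 1 each with RLE factors, doublets kept, free RNA subtracted, gene span correction and the replicate block, while equal weight per type gave 1 in neurons, where the count had been 0. In neuron types the 4 ageing calls became 10 with gene span correction, 7 without a filter, 2 with only 2 groups and 4 with the replicate block, and the 0 treatment calls became 3 by DESeq2, 7 without a filter and 0 with the block. The difference between neuron classes stayed at 0 and 0 with the block.

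Without 1 library the class counts ranged from 4 to 13 with ageing, 0 to 9 with treatment and 0 to 4 for treated aged against young, and those in neuron types from 1 to 6 and 0 to 6. For ageing, leaving out aged AAV-EGFP replicate 1 gave 13, and leaving out its replicate 3 or young replicate 3 gave 4. For treatment, leaving out aged AAV-EGFP replicate 1 gave 9, with 0 without aged AAV-B3GNT3 replicate 2, and 2 without aged AAV-B3GNT3 replicate 1, aged AAV-EGFP replicate 2 or young replicates 2 or 3. For treated aged against young, 4 were called without aged AAV-EGFP replicate 1, 0 without aged AAV-B3GNT3 replicate 1 or young replicate 2, and 1 without aged AAV-B3GNT3 replicate 3, aged AAV-EGFP replicate 2 or young replicates 1 or 3. In types with ageing, 1 was called without aged AAV-B3GNT3 replicate 1 or any 1 young sample, and 2 when aged AAV-EGFP replicate 2 was left out. In types with treatment, 6 were called without aged AAV-EGFP replicate 3, 4 without aged AAV-B3GNT3 replicate 3 and 2 when aged AAV-EGFP replicate 1 was left out. The Grin2a to Grin2b log2 ratio in excitatory neurons ranged from −0.24 to −0.16 with ageing and from 0.25 to 0.33 with treatment, and the Gria2 share in astrocytes from 10.2 to 13.1, −7.16 to −4.20 and 4.48 to 7.68 percentage points in the 3 comparisons.

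The Gria2 share in astrocytes differed by 11.6 points with ageing, and by 5.93 with doublets kept and −1.04 with free RNA subtracted. Its treatment difference of −5.38 became 0.1001 and 1.09, and the 6.27 between treated aged and young became 0.0521 with free RNA subtracted. The values with free RNA subtracted cannot show whether these differences held, since Gria3 and Gria4 then fell below the count filter in astrocytes. Replicate numbers only name samples: correlations of same-numbered deviations ran from −0.27 to 0.30, and 2, 2, 1 and 2 of 9 pairs exceeded 0.1 in excitatory neurons, inhibitory neurons, astrocytes and OPCs.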
